A study of Mus musculus with 12 samples.

Results

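The 10 genes described here are 4 genes of the EMP and PMP22 family of small membrane proteins (Emp1, Emp2, Emp3 and Pmp22), the type II keratin genes Krt7 and Krt8, the type I keratin genes Krt18 and Krt19, the vimentin gene Vim and the nestin gene Nes. They were taken by symbol from the table of read-pair counts, in which all 10 of the listed symbols were found among 24421 genes. The list was chosen by function and by the measured differences between 0 and 100 nM dTAG13, with Emp1 selected on the depth of its fall, so every value against 0 nM is given below as a description, with no test. The tests below compare the libraries of 0.3, 1, 3 and 10 nM, outside the difference between 0 and 100 nM. The members and the tests were still chosen with earlier results of these data known. The p-values are therefore not independent of that choice.

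RNA was sequenced from mES cells (mouse embryonic stem cells, C57BL/6J) that were grown without feeder cells on gelatin in 2i/LIF medium, which holds them in the naive pluripotent state. All cells, the controls included, came from a clonal line that carried the FKBP12 F36V degron on BRG1, the catalytic ATPase of the mSWI/SNF chromatin remodelling complexes, so differences between clones were not sampled. The small molecule dTAG13 directs the tagged protein to the proteasome, and it was left on the cells for 24 h at doses of 0.3, 1, 3, 10 or 100 nM. Control cells got no dTAG13 (0 nM), and the study describes its 0 nM cells as treated with DMSO. Each of the 6 conditions had 2 libraries, so 12 were analysed. The study gives its expression data as coming from independent experiments. Because dTAG13 acts on the protein, the transcript of the targeted gene does not check the labels.

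Intermediate filaments are ropes of coiled-coil proteins that give cells mechanical strength. Keratin filaments are obligate heteropolymers of a type I and a type II chain, and KRT8 with KRT18 is the pair of simple epithelia and the first to appear in the embryo, whereas vimentin polymerizes on its own and nestin joins it in progenitor cells. EMP1, EMP2, EMP3 and PMP22 are relatives of the claudins that cross the membrane 4 times. They take part in cell contacts, growth control and, for PMP22, in the myelin of peripheral nerves.

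Promoter sequences are shown for the 3 genes called at both of the dose steps tested below, Emp1, Krt8 and Nes, and for Krt18, the chromosomal neighbour and partner of Krt8, to set the letters of the pair side by side. Each is the RefSeq sequence from 250 bases before to 50 bases after the annotated start on GRCm38.p6 (mm10), written 5′ to 3′ along the gene's strand. Of the 10 genes, 9 matched a RefSeq promoter, and Krt19 did not. Capitals mark matches, on either strand and with overlaps allowed, to 4 motifs: the AP-1 site TGANTCA, the TEAD site GGAATG, the GC box GGGCGG and the TATA box TATAAA.
Emp1, chr6:135362681-135362980, plus strand: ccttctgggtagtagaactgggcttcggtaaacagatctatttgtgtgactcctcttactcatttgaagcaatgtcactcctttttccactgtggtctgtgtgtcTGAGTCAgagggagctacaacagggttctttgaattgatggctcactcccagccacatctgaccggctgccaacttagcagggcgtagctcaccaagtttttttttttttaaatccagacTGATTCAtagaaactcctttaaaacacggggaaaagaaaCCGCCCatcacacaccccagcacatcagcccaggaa
Krt8, chr15:102004293-102004592, minus strand: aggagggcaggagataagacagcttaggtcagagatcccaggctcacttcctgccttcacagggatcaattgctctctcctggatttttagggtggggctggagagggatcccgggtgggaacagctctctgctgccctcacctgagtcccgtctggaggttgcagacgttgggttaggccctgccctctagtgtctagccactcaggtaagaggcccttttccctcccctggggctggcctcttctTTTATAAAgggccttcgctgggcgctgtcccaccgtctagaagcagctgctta
Krt18, chr15:102027966-102028265, plus strand: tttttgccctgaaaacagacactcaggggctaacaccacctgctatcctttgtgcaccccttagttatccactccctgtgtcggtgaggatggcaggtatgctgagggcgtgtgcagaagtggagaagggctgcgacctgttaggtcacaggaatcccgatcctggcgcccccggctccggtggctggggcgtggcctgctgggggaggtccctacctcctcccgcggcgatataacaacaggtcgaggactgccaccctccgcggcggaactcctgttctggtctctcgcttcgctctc
Nes, chr3:87970843-87971142, plus strand: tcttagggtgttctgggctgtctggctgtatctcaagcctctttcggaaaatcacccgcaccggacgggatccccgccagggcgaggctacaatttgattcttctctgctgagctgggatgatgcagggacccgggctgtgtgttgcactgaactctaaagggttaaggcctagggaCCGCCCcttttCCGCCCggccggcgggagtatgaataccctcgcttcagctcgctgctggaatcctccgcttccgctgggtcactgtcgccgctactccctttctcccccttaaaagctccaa

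The Emp1 promoter shown held 2 AP-1 matches and 1 GC box. A second RefSeq promoter of Emp1, at chr6:135367243-135367542, held no match to any of the 4 motifs. Of 32851 mouse promoters of the same length, 7.81% held at least 1 AP-1 match and 0.460% held 2 or more. The capitals in Krt8 are 1 stretch that gives 2 overlapping TATA matches, 1 on each strand. They begin at positions -3 and -1 relative to the annotated start. Any TATA match was found in 13.6% of promoters and 2 or more in 2.36%, with overlapping matches counted as here. Krt18 had no match to any of the 4 motifs in this window. Nes held 2 GC boxes, where 35.7% of promoters have at least 1 and 19.5% have 2 or more. The TEAD letters, found in 14.7% of promoters, were in none of the 4 sequences shown, and of the members' other windows only 1 of Pmp22 had them. A match of letters is a description and was not tested as a binding site.

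The libraries held between 4663484 and 6375582 counts in total (median 5956670). The genes differed widely in level, so values are given as RPKM, the count per kilobase of exon scaled to library size, and these can be compared between genes. Without dTAG13, Vim stood far above the others at 85.6 ± 0.260 RPKM (SD, n = 2). Krt8 followed at 9.05 ± 0.892 RPKM, Emp1 at 5.49 ± 1.02 RPKM, Krt18 at 5.33 ± 0.300 RPKM and Nes at 2.00 ± 0.537 RPKM (SD, n = 2 each). The libraries of Emp1 (4.76 and 6.21 RPKM) enclosed those of Krt18 (5.12 and 5.54 RPKM), so these neighbours in the order were not apart. Krt19, Emp3, Emp2, Krt7 and Pmp22 had means between 0.107 and 1.26 RPKM. At 100 nM the order was different. Vim stood at 113 RPKM, Nes at 5.46 RPKM, Krt18 at 4.47 RPKM and Krt8 at 2.21 RPKM, and Emp1 had the lowest mean of the 10 at 0.134 RPKM, from 2 and 3 counts. Its 100 nM libraries overlapped those of Krt7 and Pmp22, and the libraries of Krt18 overlapped those of Nes, so these were not apart. The 8 markers of mES cells (Pou5f1, Sox2, Nanog, Esrrb, Klf4, Zfp42, Tdgf1 and Dppa5a) were read in every condition, with summed levels between 1974 and 2177 RPKM in the 12 libraries. Single markers moved in both directions within that sum. From 0 to 100 nM the mean of Dppa5a went from 793 to 565 RPKM, and those of Pou5f1 and Esrrb were lower too. Nanog went from 228 to 326 RPKM and Tdgf1 from 170 to 243 RPKM, and the means of Sox2, Klf4 and Zfp42 were higher too.

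**Figure D1:**
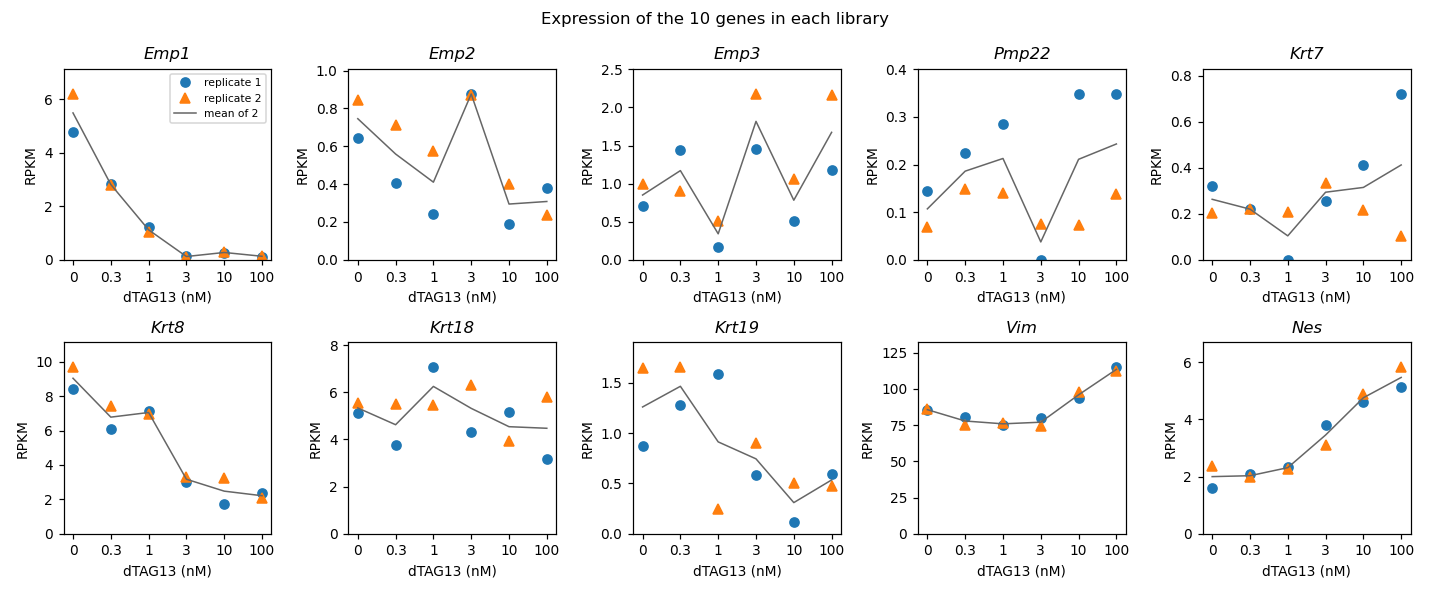
Expression in RPKM (vertical axis, linear and different for each gene) of the 10 genes in the 12 libraries, against dTAG13 in nM (horizontal axis, doses evenly spaced). Points are libraries and lines join the means of 2. Emp1 and Krt8 are lowest at 3 nM and above, Nes is highest there, Vim is highest at 100 nM, and Emp2, Emp3, Pmp22, Krt7 and Krt19 scatter at low levels.

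Tests were made on the 11378 genes whose mean level was 1 RPKM or more, and a gene was called when edgeR's quasi-likelihood test, adjusted after Benjamini and Hochberg over these genes, gave an adjusted p under 0.05 with more than a 1.5-fold difference. Of the 10 members, 6 passed this minimum (Emp1, Emp3, Krt8, Krt18, Vim and Nes). Emp3 was just inside it with a mean of 1.11 RPKM and Krt19 just outside with 0.870 RPKM. Emp1 was under 1 RPKM in the libraries of 3, 10 and 100 nM and passed only through the conditions where it was high, so the counts of members below are given as a description. A second fit of the 23204 genes with at least 1 count tested the 4 members under the minimum, and in it Emp1 was called lower at both steps (adjusted p = 1.24e-16 and 0.00158, edgeR's quasi-likelihood test). At 3 against 0.3 nM, 3 members were called, 1 higher (Nes) and 2 lower (Emp1 and Krt8), where 1.94% of the tested genes were called, 0.747% higher and 1.2% lower. At 10 against 1 nM, the same 3 genes were called in the same directions, where the share over all tested genes was 2.54%, with 0.809% higher and 1.73% lower. The sample numbers in the labels put the 0, 1, 10 and 100 nM libraries in one series and the 0.3 and 3 nM libraries in another, and what the series stand for is not given in the sources used here. Each step stays within a series, whereas levels at 0.3 and 3 nM relative to 0 nM, and the difference between the steps, set libraries of both series against each other.

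Emp1 (epithelial membrane protein 1), which lies on mm10 at chr6:135362931-135383173 on the plus strand, had 85 and 117 counts without dTAG13, 49 and 49 with 0.3 nM and 22 and 19 with 1 nM. It had 2 and 2 counts with 3 nM, 5 and 5 with 10 nM and 2 and 3 with 100 nM. Every library at 3 nM or above was lower than every library at 1 nM or below. Relative to the control the means were 51.3% with 0.3 nM and 20.4% with 1 nM, then 2.26%, 5.02% and 2.43% with 3, 10 and 100 nM. In a bulk sample, fewer cells that express a gene and less RNA in each cell cannot be told apart. At 3 nM both libraries were under the floor of 3 counts that was set for folds. With both set to that floor, the mean of Emp1 was 15.1-fold lower than at 0.3 nM. In the fit, the log2 difference was -4.43 (95% interval -5.40 to -3.47). The fall passed the test on the counts themselves (adjusted p = 1.13e-06, edgeR's quasi-likelihood test). At 10 nM it was 3.99-fold lower than at 1 nM, a log2 difference of -1.99 (standard error 0.45, adjusted p = 0.00705, edgeR's quasi-likelihood test). That second call rests on few counts, and its adjusted p was 0.0649 without replicate 1 of 1 nM, 0.05003 without replicate 1 of 10 nM and 0.0607 without replicate 2 of 10 nM. The steps differed from each other by 2.44 on the log2 scale (standard error 0.81), which did not pass the test of the difference (adjusted p = 0.493, edgeR's quasi-likelihood test, unadjusted p = 0.0061). Over the 8 libraries of 0.3 to 10 nM, the level of Emp1 fell with dose, with a log2 slope of -3.16 per 10-fold dose (standard error 0.38, adjusted p = 1.12e-05 from the same edgeR test), where 2.77% of all tested genes were called for a slope. This fit too holds Emp1 only through the doses where it was high. Over the alternatives run, the fit of all genes with a count among them, the slope was between -3.53 and -2.77.

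No other member of the family was called at either step. Emp2, at chr16:10281749-10313968 on the minus strand, encodes a regulator of integrins at the cell surface. It had 13 and 18 counts without dTAG13, 8 and 14 with 0.3 nM, 5 and 12 with 1 nM, 15 and 17 with 3 nM, 4 and 8 with 10 nM and 8 and 5 with 100 nM. Its 3 nM libraries lay above both 0.3 nM libraries, and those of 10 nM overlapped those of 1 nM. Its log2 difference was 0.60 at 3 against 0.3 nM (95% interval -0.36 to 1.56) and -0.51 at 10 against 1 nM (-1.71 to 0.69), neither past the test (adjusted p = 0.713 and 0.782, edgeR's quasi-likelihood test in the fit of all genes with a count).

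Emp3, at chr7:45918023-45921426 on the minus strand, had between 1 and 13 counts in a library. It had 8 and 5 counts with 0.3 nM against 7 and 12 with 3 nM, and 1 and 3 counts with 1 nM against 3 and 6 with 10 nM. Per library size, its 3 nM libraries (1.45 and 2.18 RPKM) lay above those of 0.3 nM (1.44 and 0.898 RPKM), by a narrow margin for 1 of them, and the libraries of 1 and 10 nM overlapped. Its log2 difference was 0.64 at 3 against 0.3 nM (95% interval -0.60 to 1.88) and 1.14 at 10 against 1 nM (-0.73 to 3.00), neither past the test (adjusted p = 0.625 and 0.559, edgeR's quasi-likelihood test). Pmp22, a major protein of peripheral myelin at chr11:63128982-63159547 on the plus strand, had between 0 and 5 counts in a library, and a difference was not detectable at this depth.

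**Figure D2:**
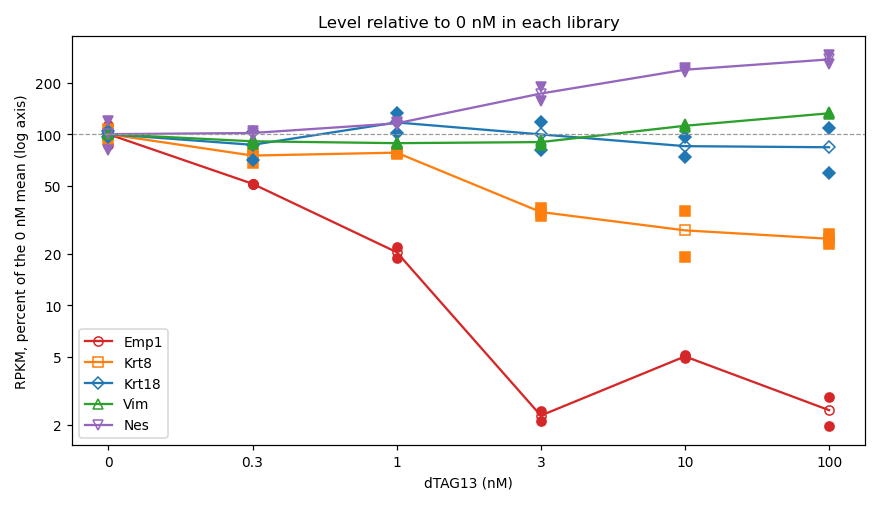
RPKM as percent of the 0 nM mean (vertical log axis) in the libraries (filled points) and their means (open points and lines) for Emp1, Krt8, Krt18, Vim and Nes, against dTAG13 in nM (doses evenly spaced). Emp1 is near 20.4% at 1 nM and under 6% above it, Krt8 is near 78.0% at 1 nM and 35.1% at 3 nM, the means of Krt18 and Vim stay within 83.8% to 132%, and the mean of Nes reaches 274%.

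Among the keratins, Krt8 was lower at the higher dose of both steps, whereas Krt18 passed neither test. Krt8, at chr15:101996711-102004342 on the minus strand, stood at 8.42 and 9.68 RPKM without dTAG13, 6.12 and 7.45 RPKM with 0.3 nM and 7.14 and 6.97 RPKM with 1 nM. It stood at 3.01 and 3.33 RPKM with 3 nM, 1.73 and 3.23 RPKM with 10 nM and 2.36 and 2.06 RPKM with 100 nM. The libraries of 3 nM and above, with 19 to 34 counts, did not overlap those of 1 nM and below, with 63 to 108 counts. Relative to 0 nM the means were 75.0% and 78.0% at 0.3 and 1 nM, then 35.1%, 27.4% and 24.5% at 3, 10 and 100 nM. Krt8 was 2.13-fold lower at 3 than at 0.3 nM (log2 difference -1.09, standard error 0.25, adjusted p = 0.00944, edgeR's quasi-likelihood test). It was 2.85-fold lower at 10 than at 1 nM (log2 difference -1.51, standard error 0.25, adjusted p = 0.000302, edgeR's quasi-likelihood test). The first call was lost without replicate 2 of 0.3 nM (adjusted p = 0.108) or without replicate 1 of 3 nM (adjusted p = 0.0595) in the same edgeR test, and the second held in all 24 alternatives run. The log2 slope of Krt8 over 0.3 to 10 nM was -1.29 per 10-fold dose (standard error 0.19, adjusted p = 8.3e-05, edgeR's quasi-likelihood test).

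Krt18 starts 23874 bases from the start of Krt8, at chr15:102028216-102032026 on the plus strand, and no other gene of the table lies between them. Its libraries stood at 3.76 and 5.49 RPKM with 0.3 nM against 4.32 and 6.31 RPKM with 3 nM, and at 7.05 and 5.44 RPKM with 1 nM against 5.16 and 3.92 RPKM with 10 nM. The first pair of doses overlapped and the second did not. The log2 difference was 0.21 at 3 against 0.3 nM (95% interval -0.41 to 0.84, adjusted p = 0.766, edgeR's quasi-likelihood test). At 10 against 1 nM it was -0.45 (95% interval -1.05 to 0.15, adjusted p = 0.439, edgeR's quasi-likelihood test). The second interval holds both no change and falls of up to 1.05 on the log2 scale, so neither was excluded for Krt18. Its libraries at 0 nM stood at 5.12 and 5.54 RPKM and those at 100 nM, at 3.16 and 5.78 RPKM, enclosed them.

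The ratio of Krt8 to Krt18 RPKM was formed in each library, since the proteins pair. It was 1.64 and 1.75 without dTAG13, 1.63 and 1.36 with 0.3 nM, 1.01 and 1.28 with 1 nM, 0.698 and 0.527 with 3 nM, 0.335 and 0.824 with 10 nM and 0.747 and 0.357 with 100 nM. Every library at 1 nM or below had more Krt8 than Krt18 transcript per length and every library at 3 nM or above had less. At 3 nM the mean ratio was 41.0% of that at 0.3 nM, and at 10 nM 50.5% of that at 1 nM. Leaving out 1 library of the doses compared gave 35.3% to 46.8% for the first value and 29.2% to 71.9% for the second. With Krt7 added to the numerator and Krt19 to the denominator, these were 50.3% and 56.7%. The ratio was not tested, because Krt8 entered the list with its values known. GENCODE M21 places 101 bases of a noncoding transcript of the opposite strand, Gm36026, on the exons of Krt8, and since strand was not used in counting, reads of both fall on Krt8.

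**Figure D3:**
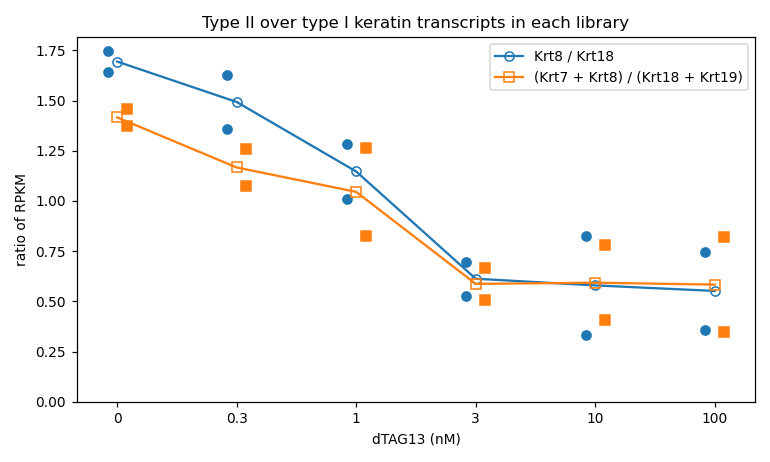
Ratio of type II to type I keratin transcripts, both in RPKM (vertical axis from 0), in each library (filled points) with means of 2 (open points and lines), against dTAG13 in nM (doses evenly spaced). The Krt8 to Krt18 ratio is between 1.01 and 1.75 up to 1 nM and between 0.335 and 0.824 from 3 nM.

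Krt19, a type I keratin at chr11:100140811-100145919 on the minus strand, was low in every library. It had 7 and 14 counts without dTAG13, 10 and 13 with 0.3 nM, 13 and 2 with 1 nM, 4 and 7 with 3 nM, 1 and 4 with 10 nM and 5 and 4 with 100 nM. The 3 nM libraries were both below the 0.3 nM libraries, while those of 1 and 10 nM overlapped. Its log2 slope was -1.20 per 10-fold dose (standard error 0.50, unadjusted p = 0.0165), which did not pass the test (adjusted p = 0.152, edgeR's quasi-likelihood test). Krt7, at chr15:101412403-101427806 on the plus strand, had between 0 and 7 counts in a library and could not be compared at this depth.

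KRT7, KRT8 and KRT18 are also keratins of trophectoderm, the outer layer of the blastocyst, and of endoderm. The summed level of 7 trophectoderm markers, Krt7 among them, was 13.98 to 14.7 RPKM with 0.3 nM and 16.8 to 17.6 RPKM with 3 nM, and 14.5 to 16.8 RPKM with 1 nM and 16.6 to 17.3 RPKM with 10 nM. Most of it came from Eomes. Of the defining genes, Elf5 and Hand1 had at most 2 counts in any library, while Cdx2 had between 4 and 64. Cdx2 had means of 0.775 RPKM with 0.3 nM, 0.823 RPKM with 3 nM, 0.972 RPKM with 1 nM and 1.65 RPKM with 10 nM, beside 0.549 RPKM without dTAG13 and 4.71 RPKM with 100 nM. Gata3 and Gata2 had lower means at the higher dose of each step. Gata3 stood at 1.47 and 1.43 RPKM with 0.3 and 3 nM, and at 1.09 and 0.753 RPKM with 1 and 10 nM. For Gata2 these were 1.21 and 0.723 RPKM, and 1.00 and 0.846 RPKM. The 8 markers of primitive endoderm summed to 4.56 to 5.20 RPKM with 0.3 nM, 4.37 to 4.72 RPKM with 3 nM, 3.71 to 5.31 RPKM with 1 nM and 3.63 to 4.05 RPKM with 10 nM, and Gata6 had at most 4 counts in any library. The trophectoderm sum was thus higher at 3 than at 0.3 nM, while the ranges of 1 and 10 nM overlapped, and the part of these markers in the Krt8 result was not tested.

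Vim, the most abundant member, encodes the filament protein of mesenchymal cells and lies at chr2:13574311-13582826 on the plus strand. It stood at 85.4 and 85.8 RPKM without dTAG13, 80.2 and 75.4 RPKM with 0.3 nM, 75.2 and 76.5 RPKM with 1 nM, 79.5 and 74.4 RPKM with 3 nM, 93.9 and 97.9 RPKM with 10 nM and 115 and 112 RPKM with 100 nM. The 0.3, 1 and 3 nM libraries lay below both 0 nM libraries, and the 10 and 100 nM libraries lay above them. The log2 difference at 3 against 0.3 nM was -0.01 (95% interval -0.16 to 0.13, adjusted p = 0.944, edgeR's quasi-likelihood test), so a change of more than 1.5-fold at this step lies outside the interval. At 10 against 1 nM the log2 difference was 0.34 (standard error 0.068, adjusted p = 0.00188, edgeR's quasi-likelihood test), higher in 2 of 2 libraries by 1.27-fold, which is under the 1.5-fold minimum. The difference between the steps was 0.36 on the log2 scale (standard error 0.097, unadjusted p = 0.00119) and did not pass the test over all genes (adjusted p = 0.316, edgeR's quasi-likelihood test). Of all 11378 tested genes, 0.0352% were called for a difference between the steps, none of them a member, and 2 members (Emp1 and Vim) had an unadjusted p under 0.05, as did 788 of all tested genes. DESeq2's Wald test called 0 members for it too. The summed level of 8 fibroblast markers was 2.44 to 4.06 RPKM with 1 nM and 3.18 to 3.62 RPKM with 10 nM, and Col1a1 had at most 19 counts in any library.

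Nes, at chr3:87971093-87980451 on the plus strand, encodes nestin, a filament protein of neural and other progenitors. It had 58 and 90 counts without dTAG13 (1.62 and 2.38 RPKM), 73 and 69 with 0.3 nM (2.09 and 1.97 RPKM) and 86 and 84 with 1 nM (2.35 and 2.27 RPKM). It had 115 and 108 counts with 3 nM (3.78 and 3.12 RPKM), 172 and 175 with 10 nM (4.61 and 4.90 RPKM) and 191 and 220 with 100 nM (5.11 and 5.81 RPKM). The libraries of 3 nM and above did not overlap those of 1 nM and below, and the means relative to 0 nM were 102%, 116%, 173%, 238% and 274% in order of dose. Nes rose 1.70-fold from 0.3 to 3 nM (log2 difference 0.76, standard error 0.18, adjusted p = 0.0103, edgeR's quasi-likelihood test). From 1 to 10 nM it rose 2.06-fold (log2 difference 1.04, standard error 0.16, adjusted p = 0.000122, edgeR's quasi-likelihood test). The first call was lost without replicate 1 of 0.3 nM (adjusted p = 0.0682), without replicate 2 of 0.3 nM (0.0948) or without replicate 1 of 3 nM (0.102) in the same edgeR test. The slope of 0.92 per 10-fold dose on the log2 scale (standard error 0.11, adjusted p = 1.54e-05, edgeR's quasi-likelihood test) kept its call in each fit that left out a library.

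A list of 8 neural progenitor markers, of which Nes is a member, summed to 35.9 to 40.3 RPKM with 0.3 nM and 53.9 to 54.2 RPKM with 3 nM. The sum was 43.4 to 45.4 RPKM with 1 nM, 62.4 to 63.6 RPKM with 10 nM, 35.5 to 40.1 RPKM without dTAG13 and 68.7 to 70.2 RPKM with 100 nM, so the sum moved with Nes. Most of it was Tubb3, a tubulin of neurons, with a mean of 32.6 RPKM with 0.3 nM and 45.8 RPKM with 3 nM. Sox1, which defines neuroectoderm, stood at 3.16 and 4.19 RPKM at these doses. With 1 and 10 nM it stood at 4.06 and 3.90 RPKM, so its mean was not higher at that step. It was at 3.25 RPKM without dTAG13 and 3.53 RPKM with 100 nM. Neurog2 and Fabp7 were at 0 in 10 of 12 libraries. The part of these markers in the result was not tested.

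**Figure D4:**
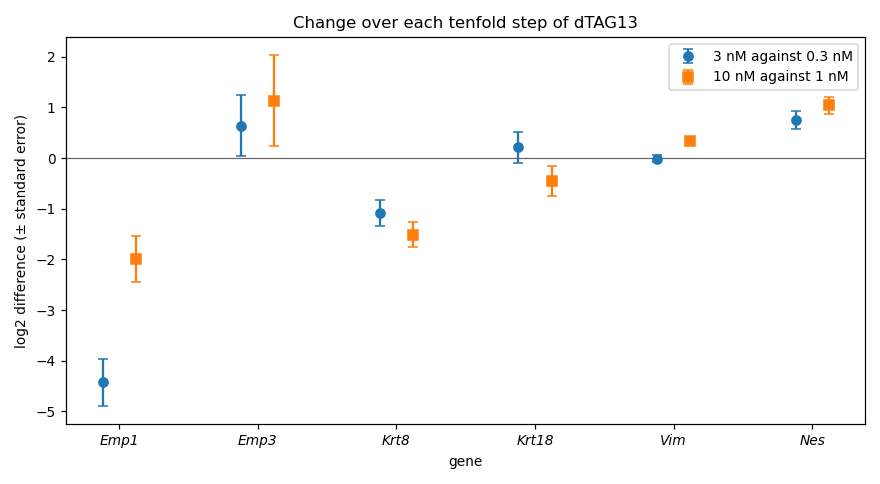
Log2 difference (vertical axis, bars show ± 1 standard error of the fit) over the 10-fold steps from 0.3 to 3 nM (circles) and from 1 to 10 nM (squares) for the 6 genes past the RPKM minimum. Emp1 and Krt8 lie below 0 at both steps, Nes lies above 0 at both, and Vim lies at -0.01 and 0.34. The Emp1 value at the first step rests on 2 counts in each 3 nM library.

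Related genes were followed in 4 lists, which hold 52 genes: 16 other keratins, 13 other intermediate filament proteins, 15 plakins, desmosome and linker proteins, and 8 further proteins of the PMP22 and claudin kind. Of these, 29 passed the minimum of 1 RPKM. At 3 against 0.3 nM, 1 was called higher and 3 lower, where 1.94% of all tested genes were called. At 10 against 1 nM, 2 were higher and 5 lower, where 2.54% of all tested genes were called. The medians of the 29 were -0.21 and -0.18 on the log2 scale, beside -0.0005 and -0.0022 for all tested genes. The lists were chosen with earlier results known, so these counts are a description. The 4 calls of the first step were 0 without replicate 1 of 0.3 nM, 1 without replicate 2 of 0.3 nM, 1 without replicate 1 of 3 nM and 2 without replicate 2 of 3 nM, and DESeq2's Wald test made 1. The 7 calls of the second step were 4 without replicate 1 of 1 nM.

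Of the other keratins, 3 of 16 were tested, and the remaining 13 had at most 11 counts in any library. Krt17 and Krt42, type I keratins of skin appendages, were lower at 10 than at 1 nM. Krt42 stood at 15.03 and 15.4 RPKM with 1 nM and 6.90 and 4.76 RPKM with 10 nM (log2 difference -1.38, standard error 0.21, adjusted p = 0.000124, edgeR's quasi-likelihood test). At 3 against 0.3 nM its log2 difference was -0.30 (adjusted p = 0.459, from the same edgeR test). Krt17 stood at 5.31 and 6.24 RPKM with 1 nM and 1.52 and 3.52 RPKM with 10 nM (log2 difference -1.20, standard error 0.31, adjusted p = 0.0177, edgeR's quasi-likelihood test). The Krt17 call was lost with DESeq2's Wald test (adjusted p = 0.0575), without either 1 nM library (0.0513 and 0.152) and without replicate 1 of 10 nM (0.228). Read pairs that mapped to several places were left out of the counts, so keratin genes with near-identical copies are covered by their unique stretches only.

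Among the other filament proteins, 9 of 13 were tested. Des (desmin, the filament protein of muscle) stood at 1.66 and 2.16 RPKM with 0.3 nM and 0.657 and 0.577 RPKM with 3 nM (log2 difference -1.62, adjusted p = 0.0186, edgeR's quasi-likelihood test). Each fit without a library of these doses ended that call (adjusted p = 0.0520 to 0.147). Prph (peripherin, of peripheral neurons) stood at 5.64 and 6.36 RPKM with 0.3 nM and 2.92 and 3.70 RPKM with 3 nM, and at 4.93 and 4.97 RPKM with 1 nM and 2.11 and 3.03 RPKM with 10 nM. It was called lower at both steps (adjusted p = 0.0452 and 0.0289, edgeR's quasi-likelihood test), but with DESeq2's Wald test at neither (adjusted p = 0.192 and 0.128). The first call was lost in 14 of 24 alternatives, among them each fit without a library of these doses (adjusted p = 0.0898 to 0.224), the pairwise fit (0.0757) and no normalization factors (0.0822). The second was lost in 7 of 24, with adjusted p up to 0.210 without a library. Over 0.3 to 10 nM the log2 slopes were -1.26 for Des and -0.89 for Prph per 10-fold dose (adjusted p = 0.00899 and 0.00202, edgeR's quasi-likelihood test), and both kept the call in the fits that left out a library. The slope fit too holds Des only through the doses where it was high.

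The neuronal filament genes Nefl and Ina (neurofilament light chain and alpha-internexin) were the ones called higher. Nefl stood at 9.12 and 7.76 RPKM with 0.3 nM, 14.1 and 11.7 RPKM with 3 nM, 10.3 and 11.5 RPKM with 1 nM and 18.05 and 16.5 RPKM with 10 nM. Its log2 differences were 0.61 and 0.67 (adjusted p = 0.0230 and 0.00384, edgeR's quasi-likelihood test). The first was lost without either 0.3 nM library (0.0617 and 0.204) or replicate 1 of 3 nM (0.180), and the second without replicate 1 of 1 nM (0.0772). Ina stood at 7.92 and 7.40 RPKM with 1 nM and 13.7 and 13.96 RPKM with 10 nM (log2 difference 0.86, standard error 0.14, adjusted p = 0.000172, edgeR's quasi-likelihood test). At 3 against 0.3 nM Ina was not called (log2 difference 0.29, adjusted p = 0.288, from the same edgeR test). Nefm and Nefh (neurofilament medium and heavy chains) were tested too and called at neither step. Their log2 differences were 0.38 and 0.58 for Nefm and -0.18 and 0.063 for Nefh. Prph, also of neurons, was called lower, as given above. As for Nes, the neural marker sum given above was higher at the higher dose of each step, and its part in these results was not tested.

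Of the plakins and desmosome genes, 10 of 15 were tested. Jup (plakoglobin, which ties keratin filaments to desmosomes) stood at 31.4 and 31.1 RPKM with 1 nM and 20.2 and 19.4 RPKM with 10 nM (log2 difference -0.65, standard error 0.073, adjusted p = 1.38e-06, edgeR's quasi-likelihood test). At 3 against 0.3 nM its log2 difference was -0.52 (adjusted p = 5.52e-05, from the same edgeR test), which is under the 1.5-fold minimum. Of the PMP22 and claudin relatives, 7 of 8 were tested and Cldn4 was called. Cldn4 (claudin 4, of tight junctions) stood at 20.5 and 19.2 RPKM with 0.3 nM, 11.7 and 13.2 RPKM with 3 nM, 15.4 and 16.5 RPKM with 1 nM and 7.52 and 9.65 RPKM with 10 nM. It was lower at both steps, with log2 differences of -0.67 and -0.89 (adjusted p = 0.00366 and 0.000251, edgeR's quasi-likelihood test), and the first was lost without replicate 1 of 0.3 nM (0.0614).

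**Figure D5:**
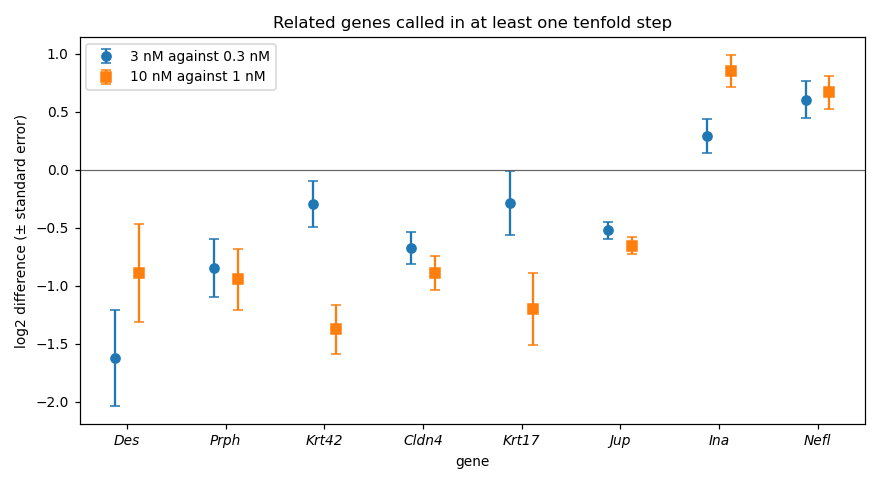
Log2 difference (vertical axis, bars show ± 1 standard error of the fit) of the 8 related genes called in at least 1 of the 10-fold steps, from 0.3 to 3 nM (circles) and from 1 to 10 nM (squares). Des, Prph, Krt42, Cldn4, Krt17 and Jup lie below 0 at both steps, and Ina and Nefl lie above it.

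The genes whose pattern was most like that of Emp1 were found by Pearson's r over the 12 libraries on log2(RPKM + 0.1). They were Baz2a (r = 0.977), Gas2l3 (0.975), Ak1 (0.971), Msn (0.968) and Spata13 (0.964). The libraries share the dose series, so r is a description. At 0 and 3 nM, Baz2a stood at 53.5 and 43.4 RPKM, Gas2l3 at 6.67 and 3.93 RPKM, and Ak1 at 18.5 and 11.4 RPKM. Msn, which encodes moesin, a linker of the membrane to actin, stood at 31.1 and 16.02 RPKM, and Spata13 at 3.68 and 1.41 RPKM. Each of the 5 thus kept more of its 0 nM level at 3 nM than Emp1 did, at 2.26%. With log2(RPKM + 1), 3 of these 5 genes stayed among the nearest 5, and with Spearman's rho none did. Krt8 ranked 140 in likeness to Emp1 among the tested genes (r = 0.900), and Krt18 (r = 0.209), Emp3 (r = -0.356), Vim (r = -0.435) and Nes (r = -0.856) were farther from it.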

How the data were processed

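RNA was sequenced from 12 libraries of mES cells at 6 doses of dTAG13 with the stranded SMART-Seq kit for total RNA. The authors deposited raw counts of read pairs per gene symbol, made with Trim Galore, HISAT2 (mm10) and featureCounts 2.0.1 on exons, keeping pairs with both ends aligned, leaving out multi-mapped pairs and not using strand. The authors applied no normalization. All columns of the 12 libraries were used (0 were left out), with the gene lengths and coordinates of the same table. The sample labels gave the conditions.

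Counts were analysed in R 4.3.3 with edgeR 4.0.16 and limma 3.58.1. RPKM used TMM library sizes (factors 0.947 to 1.06), and genes averaging 1 RPKM or more were tested. The 6 conditions were fitted together with the quasi-likelihood test, and p-values were adjusted by the Benjamini-Hochberg method over all genes of a fit. Replicates of a condition differed by more than counting noise (chi-square per degree of freedom 2.03 to 18.0), and the common biological coefficient of variation was 6.20%. A ribosomal transcript, Rn45s, took 10.5% to 19.4% of the counts and was part of that chi-square. The highest chi-square was that of 3 nM, whose libraries held 10.5% and 19.0% Rn45s. The share of Rn45s in it was not separated from the spread of the other genes. The slope was fitted to the 8 libraries of 0.3 to 10 nM on log10 dose with a term for the series of sample numbers in the labels. Folds against a dose whose libraries both had 3 counts or fewer are given for the mean, with each of its libraries set to that floor. They are not confidence limits. Floors allow for part of the counting error only, as no molecular identifiers were used. Standard errors and 95% intervals come from the fit and include the spread between libraries. TMM assumes that most genes are unchanged and cannot show a change shared by all of them. The p-values set a difference against the spread between libraries of a condition, which the fit pooled over conditions and moderated over genes. With 2 libraries per condition, that spread rests on these libraries only.

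The members, the lists of related genes and of markers, and the tests were chosen with earlier results of these data known. All members were named. Related genes were named where called at either step, at most 10, by the size of their slope, and the 5 genes most like Emp1 were named. The plots show values already in the text. Alternatives covered the test (likelihood ratio, which the study's methods name, and DESeq2 1.42.0), the scaling, the filter, pairwise fits, a replicate block, the fold minimum and leaving out each library. The fits of both dose comparisons and of the slope were checked on simulated counts with known folds.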

Additional observations from a re-analysis of the deposited data

How the results depend on the processing

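At 3 against 0.3 nM, 3 members were called, and 1 to 3 in the fits that left out 1 library (2 with a 2-fold minimum). At 10 against 1 nM, 2 to 3 were called in such fits and 4 with no fold minimum. For the slope, 3 were called in such fits and 2 with a 2-fold minimum. The other alternatives gave 3 in these comparisons. Of the 5 genes most like Emp1, 3 were shared with log2(RPKM + 1) and 0 with Spearman's rho. Signs changed for genes that were not called in the comparison. Over the fits that left out 1 library, the log2 difference at 3 against 0.3 nM ranged from -0.10 to 0.51 for Krt18, from -0.064 to 0.032 for Vim (0.023 without normalization factors) and from -0.66 to 0.015 for the related gene Krt42. At 10 against 1 nM it ranged from -1.12 to 0.23 for Emp2, from -2.81 to 0.30 for Krt19 and from -1.45 to 0.66 for Pmp22, which was also 0.017 with upper-quartile factors and 0.050 with none. The slope ranged from -0.094 to 0.52 for Emp2 and from -0.33 to 0.023 for Krt18, and the difference between the steps from -0.10 to 1.40 for Emp3 and from -1.82 to 1.26 for Krt19. These fits hold 11 libraries instead of 12 (7 instead of 8 for the slope), and the cause of the changes was otherwise not tested. Over all tested genes, DESeq2's Wald test called 144 at 3 against 0.3 nM where edgeR called 221, and 187 at 10 against 1 nM where edgeR called 289. Fits without 1 library called 113 to 233 and 199 to 306. With no filter, 483 genes were called for the slope (315 with it) and 19 for the difference between the steps (4 with it, 7 with the likelihood ratio test, 2 with DESeq2, 1 with pairwise fits and 0 without normalization factors). No fold minimum gave 604, 713 and 1269 genes for the 2 steps and the slope, and a 2-fold minimum 63, 94 and 79. Without normalization factors, 98 genes were higher and 98 lower at the first step (85 and 136 with TMM), 125 and 148 at the second (92 and 197) and 158 and 155 for the slope (125 and 190). With TMM factors over all genes with a count, chosen after seeing the data, the first step had 68 and 180 and the slope 92 and 234. No pairing of the libraries by replicate number was seen: over 15 pairs of conditions, the correlation of the replicates' deviations ran from -0.0948 to 0.0927. Counting noise weakens such a correlation, so a pairing was not excluded. With the replicate block, 3 members were called at each step and 220 and 278 genes in all. Depth limits Emp2, Emp3, Pmp22, Krt7 and Krt19, which had at most 18 counts in a library.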
